A study of Mus musculus with 5 samples.

Results

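The 10 genes described here encode the glucose transporter Slc2a1 and 9 enzymes of glycolysis, Hk2, Gpi1, Aldoa, Tpi1, Gapdh, Pgk1, Eno1, Pkm and Ldha. They were chosen by their place on the route from glucose to lactate and not by a threshold on their values, but with earlier results of these data known. The phosphofructokinase and phosphoglycerate mutase steps of that route are not among the 10 and are given further below. All 10 were found among the 23771 genes of the cancer cell expression table. Their RNA was measured by single-cell RNA sequencing in 4T1 cells, a mouse mammary carcinoma line, growing in the lungs of mice that had been given tumor-secreted factors (TSF) or control medium (CM) beforehand. In the cancer cells of the TSF library at day 16, 8 of the 10 genes stood at a higher mean level than in the CM library and 2 at a lower one. Pgk1 had the largest log2 ratio of the 10, followed by Aldoa, Ldha and Tpi1.

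Glycolysis splits glucose into pyruvate in the cytosol and yields ATP and NADH without oxygen. Its upper steps take glucose up, trap it as a phosphate and prepare it for cleavage, and its lower steps recover ATP from the resulting triose phosphates. Lactate dehydrogenase then turns pyruvate into lactate and gives back the NAD+ that the glyceraldehyde-3-phosphate dehydrogenase step needs, and many carcinoma cells run this route at a high rate in the presence of oxygen. The Slc2a1 and enzyme genes of this set are known targets of the hypoxia-inducible factor HIF1 and, in part, of MYC.

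Both libraries came from dissociated whole lungs of female BALB/c mice that were 11 weeks old, with the lungs of 3 mice pooled in each. TSF, a medium in which pieces of resected mammary tumors had been incubated, or CM, the same medium incubated without tumor, was injected intravenously 3 times per week for 3 weeks. All mice then received 25000 4T1 cells expressing CD90.1, a Thy1 variant used to recognise them, into the bloodstream, and lungs were taken 16 days later. The model is thus 1 cell line seeded from the circulation, and each treatment had 1 library at this time point, so no test between treatments was possible and no p-value is given. Libraries of day 11, 1 of CM and 2 of TSF from mice 10 weeks old, were not used here because gene values were analysed for day 16 only.

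The CM library held 29 cancer cells among 3835 cells and the TSF library held 139 among 5197, and the means of the CM library therefore rest on few cells. The median depth of the cancer cells was 27679 UMIs (unique transcript molecules counted) in CM and 26615 in TSF. Cells with under 10000 UMIs made up 8 of 29 cancer cells in CM and 14 of 139 in TSF. Mitochondrial transcripts took a median of 1.72% of UMIs in CM and 1.99% in TSF. The 2 libraries shared 31 cell barcodes, none of which belonged to a cancer cell in both. All 6 carcinoma markers examined were detected in both libraries, with Krt8 in 29 of 29 and 137 of 139 cells, but not all at like levels. Epcam was found in 8 of 29 CM cells and 95 of 139 TSF cells, and the 95% intervals of these shares lie apart. Cldn4 was found in 3 of 29 and 25 of 139 cells and Cdh1 in 2 and 35, and for both the intervals overlap. In mean level (CP10k, defined below), 5 of the 6 markers were higher in TSF. Krt18, the most abundant, was lower, with 18.3 CP10k in CM and 15.8 CP10k in TSF. The 6 markers summed to 29.29 CP10k in CM and 29.26 CP10k in TSF. The reporter CD90.1 had a UMI in 2 of 29 CM cells (6.90%, interval 0.846 to 22.8) and 48 of 139 TSF cells (34.5%, interval 26.7 to 43.1), and these intervals lie apart.

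Levels are given as CP10k, the mean over cells of the UMIs of a gene per 10000 UMIs of that cell. In 5′ libraries of this kind each captured transcript is tagged once, so a level counts molecules and was not divided by gene length. The log2 ratio is that of TSF over CM after 1 CP10k was added to each level, which understates the ratio of genes with low levels, and 1.5-fold on that scale serves as a mark of size and not as a test. No error of a mean level could be computed, because the values of single cells were not used here. Shares of cells with at least 1 UMI of a gene carry exact Clopper-Pearson 95% intervals, and these reflect counting alone, leaving out variation from mouse to mouse. In these pooled libraries more transcript in each cell and more cells with a high level cannot be told apart from the means alone.

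**Figure D1:**
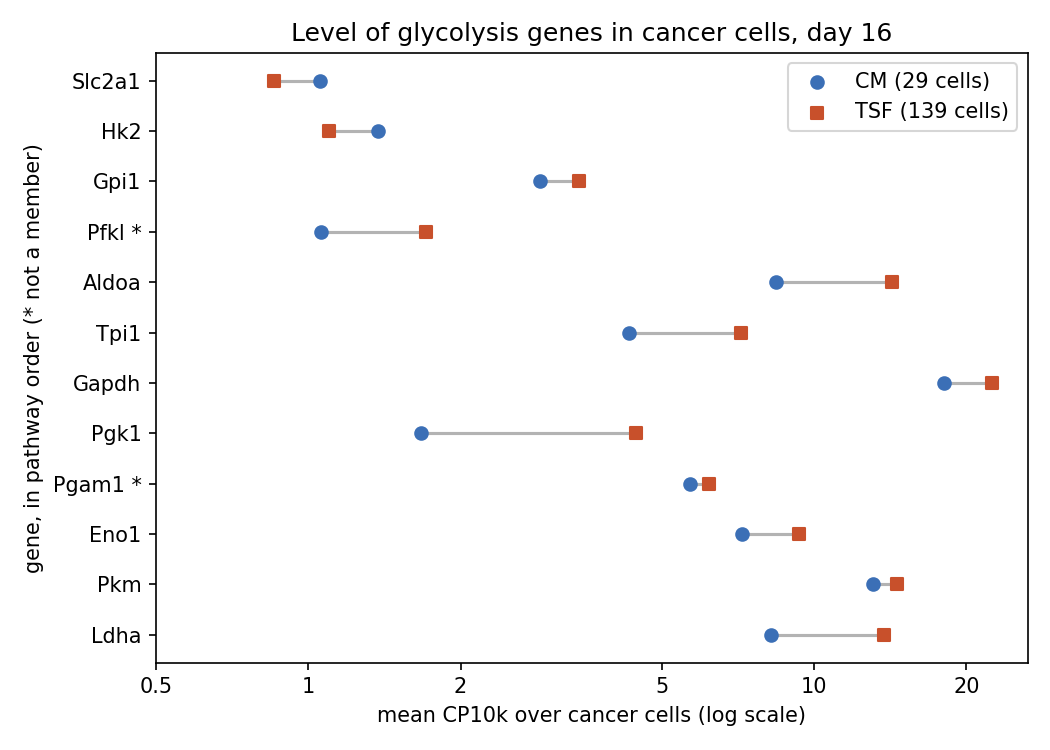
Mean level in CP10k (log axis) of the 10 genes in pathway order, with the steps of Pfkl and Pgam1, which are not among the 10, marked by a star. Each gene has 1 point for the CM library (29 cells) and 1 for the TSF library (139 cells), joined by a line. The points lie furthest apart at Pgk1 (1.67 and 4.45 CP10k), and at Slc2a1 and Hk2 the CM point lies to the right.

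Glucose enters the cell and is phosphorylated by the 2 members that were not higher in TSF. Slc2a1, the facilitative glucose transporter GLUT1 (ENSMUSG00000028645, chr4:119108711-119137983, plus strand, GRCm38), had a mean level of 1.06 CP10k in CM and 0.855 CP10k in TSF, a log2 ratio of -0.15. It was detected in 19 of 29 CM cells (65.5%, interval 45.7 to 82.1) and in 86 of 139 TSF cells (61.9%, interval 53.3 to 70.0). Hence neither its level nor its share of cells was higher in TSF. Hk2, the hexokinase isozyme typical of many tumors (ENSMUSG00000000628, chr6:82725025-82774454, minus strand), had 1.38 CP10k in CM and 1.10 CP10k in TSF, a log2 ratio of -0.18. Its share of positive cells went the other way, with 16 of 29 in CM (55.2%, interval 35.7 to 73.6) and 101 of 139 in TSF (72.7%, interval 64.5 to 79.9), and the intervals overlap. Averaged over positive cells alone, the Hk2 level was 2.49 CP10k in CM and 1.51 CP10k in TSF, so a smaller share of CM cells was positive and the level per positive cell was higher there. Gpi1, which converts glucose 6-phosphate to fructose 6-phosphate (ENSMUSG00000036427, chr7:34201330-34230336, minus strand), had 2.87 CP10k in CM and 3.43 CP10k in TSF, a log2 ratio of 0.20. The summed level of Slc2a1, Hk2 and Gpi1 was 5.30 CP10k in CM and 5.38 CP10k in TSF, a ratio of 1.02.

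The 2 members that cleave and interconvert the sugars both stood past 1.5-fold. Aldoa, the aldolase that cuts fructose 1,6-bisphosphate (ENSMUSG00000030695, chr7:126795234-126800751, minus strand), had 8.40 CP10k in CM and 14.2 CP10k in TSF, a log2 ratio of 0.70. Tpi1, which interconverts the triose phosphates (ENSMUSG00000023456, chr6:124810586-124814296, minus strand), had 4.31 CP10k in CM and 7.16 CP10k in TSF, a log2 ratio of 0.62. Nearly every cell held both genes, Aldoa in 28 of 29 and 137 of 139 cells and Tpi1 in 27 of 29 and 134 of 139. With so many CM cells already positive, a higher value in TSF could show in level but hardly in the share of cells with a UMI.

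The next 2 members yield the first NADH and the first ATP of the pathway, and they differed by unequal amounts. Gapdh, the dehydrogenase of glyceraldehyde 3-phosphate and a common reference gene (ENSMUSG00000057666, chr6:125161715-125166467, minus strand), was the most abundant of the 10, with 18.1 CP10k in CM and 22.4 CP10k in TSF, a log2 ratio of 0.30. Pgk1, the first ATP-forming kinase (ENSMUSG00000062070, chrX:106187100-106203699, plus strand), had 1.67 CP10k in CM and 4.45 CP10k in TSF, a log2 ratio of 1.03 and a plain ratio of 2.66. Of all genes compared, 12 had a higher log2 ratio than Pgk1, and on plain ratios 4.83% did. Pgk1 was detected in 21 of 29 CM cells (72.4%, interval 52.8 to 87.3) and in 130 of 139 TSF cells (93.5%, interval 88.1 to 97.0). It was the one member of the 10 whose intervals lie apart, against 1.14% of the genes compared with intervals apart and a higher share in TSF. Over positive cells alone its level was 2.31 CP10k in CM and 4.75 CP10k in TSF, so both the share of cells and the level within them were higher in TSF.

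The last 3 members end the pathway at lactate. Eno1, the enolase that forms phosphoenolpyruvate (ENSMUSG00000063524, chr4:150236721-150248879, plus strand), had 7.21 CP10k in CM and 9.33 CP10k in TSF, a log2 ratio of 0.33. Pkm, the pyruvate kinase gene whose transcripts give the M1 and M2 forms (ENSMUSG00000032294, chr9:59656368-59679375, plus strand), had 13.1 CP10k in CM and 14.6 CP10k in TSF, a log2 ratio of 0.15. The forms of Pkm were not separated, since the values are per gene. Ldha, the lactate dehydrogenase subunit that favours lactate (ENSMUSG00000063229, chr7:46841475-46855627, plus strand), had 8.22 CP10k in CM and 13.7 CP10k in TSF, a log2 ratio of 0.68. All 3 were found in at least 28 of the 29 CM cells and 135 of the 139 TSF cells, and Ldha alone of them stood past 1.5-fold.

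**Figure D2:**
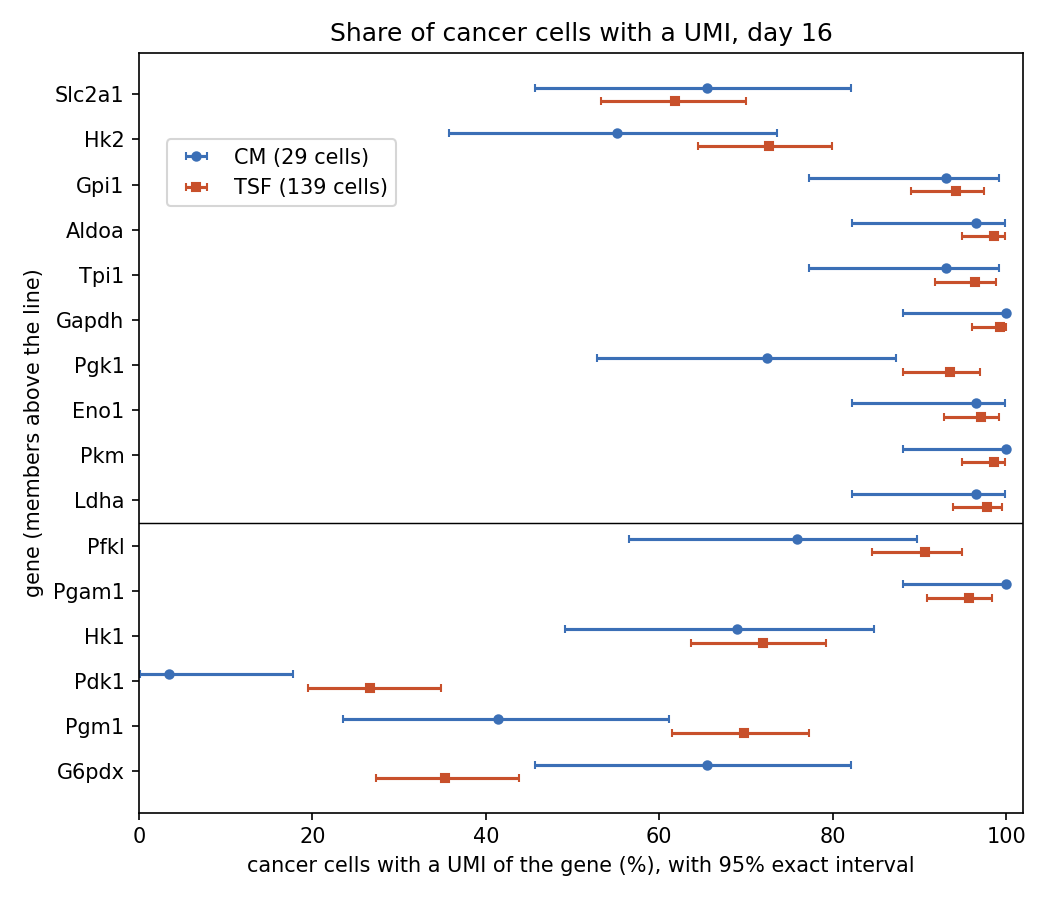
Share of cancer cells with at least 1 UMI (percent) for the 10 genes and for Pfkl, Pgam1, Hk1, Pdk1, Pgm1 and G6pdx, in CM (29 cells) and TSF (139 cells), with exact 95% intervals for counting error. Intervals lie apart for Pgk1, Pdk1 and Pgm1, with the higher share in TSF, and for G6pdx, with the higher share in CM. Of all genes compared, 1.14% have intervals apart with the higher share in TSF and 1.51% with the higher share in CM.

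In all, Aldoa, Tpi1, Pgk1 and Ldha were past 1.5-fold higher in TSF, 4 of the 10, and 0 were past 1.5-fold lower. Among the 10201 genes detected in 10% or more of the cancer cells in CM or in TSF, 0.755% were past 1.5-fold higher and 1.95% past 1.5-fold lower. A log2 ratio above 0 was found for 8 of the 10 and for 40.3% of the genes compared. The median log2 ratio was 0.31 over the 10 and -0.03 over all genes compared. Because the added 1 CP10k holds genes of low level near 0, the same shares were taken over the 1602 genes whose mean level was at least that of Slc2a1, the lowest of the 10. Of these, 4.06% were past 1.5-fold higher, 9.74% past 1.5-fold lower and 43.6% above 0. On plain ratios, with nothing added to the levels, the same 4 members were past 1.5, against 16% of all genes compared and 8.49% of the 1602.

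Within the 1602 genes at such levels, 0.749% had a higher log2 ratio than Pgk1, 2.31% than Aldoa, 2.56% than Ldha and 3.50% than Tpi1. By contrast 12.9% stood above Eno1, 14.4% above Gapdh, 23.0% above Gpi1 and 28.2% above Pkm. Slc2a1 and Hk2 lay in the lower part of the distribution, with 60.4% and 64.5% of these genes above them. On plain ratios 0.874% of the 1602 stood above Pgk1, 4.18% above Aldoa, 4.74% above Ldha and 4.93% above Tpi1. Over all genes compared, 11.8% had a higher plain ratio than Aldoa, 12.2% than Ldha and 12.4% than Tpi1. The members hence ran from the upper end of the range of genes to below its middle, and 6 of the 10 were short of 1.5-fold.

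**Figure D3:**
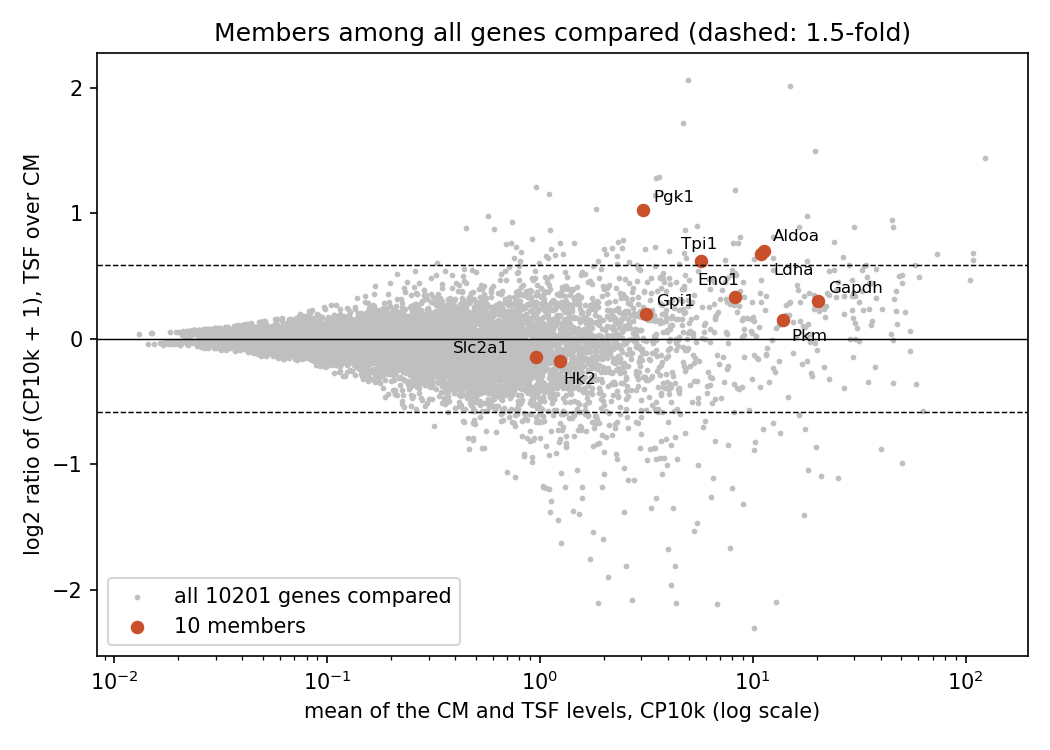
Log2 ratio of TSF over CM (after 1 CP10k was added to each level) against the mean level of both libraries (CP10k, log axis) for the 10201 genes compared (grey) and the 10 glycolysis genes (named), with dashed lines at 1.5-fold. Aldoa, Tpi1, Pgk1 and Ldha lie above the upper line, and Slc2a1 and Hk2 lie below 0.

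The 10 genes together took 66.2 CP10k of the cancer cell transcriptome in CM, or 0.662%, and 91.3 CP10k in TSF, or 0.913%, a ratio of 1.38. The 7 genes from Aldoa to Ldha had 60.9 CP10k in CM and 85.9 CP10k in TSF, a ratio of 1.41. Without Gapdh, the most abundant, the sum of the other 9 was 48.2 CP10k in CM and 68.9 CP10k in TSF, a ratio of 1.43.

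Ratios of 1 step to the next do not depend on how the libraries were scaled to each other. Pgk1 stood at 0.0927 times the level of Gapdh in CM and 0.198 times in TSF, a change by a factor of 2.14. The ratio of Ldha to Pkm was 0.629 in CM and 0.942 in TSF, and that of Gpi1 to Hk2 was 2.09 in CM and 3.12 in TSF. Tpi1 kept almost the same level relative to Aldoa, 0.513 in CM and 0.503 in TSF, as did Hk2 relative to Slc2a1, 1.30 in CM and 1.28 in TSF. Gapdh stood at 4.19 times Tpi1 in CM and 3.13 times in TSF. Pgk1 was below Tpi1 in both libraries, at 0.388 times its level in CM and 0.621 times in TSF.

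Phosphofructokinase and phosphoglycerate mutase, the steps not covered by the 10, also stood at higher levels in TSF. Pfkl, the most abundant phosphofructokinase subunit here, had 1.06 CP10k in CM and 1.71 CP10k in TSF, a log2 ratio of 0.40 that is short of 1.5-fold on this scale. It was detected in 22 of 29 CM cells and 126 of 139 TSF cells. Pgam1, the mutase, had 5.67 CP10k in CM and 6.19 CP10k in TSF, a log2 ratio of 0.11. Its ratio to Pgk1 was 3.39 in CM and 1.39 in TSF, so the mutase exceeded the kinase in both libraries but by less in TSF.

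The choice of isozyme was much alike in the 2 libraries. Aldoa made up 97.4% of aldolase transcripts in CM and 97.5% in TSF, and Ldha 98.8% and 98.6% of lactate dehydrogenase transcripts. Hk2 made up 61.9% of hexokinase transcripts in CM and 64.0% in TSF, the rest being almost wholly Hk1, whose level was 0.847 CP10k in CM and 0.616 CP10k in TSF. Pfkl made up 76.3% of phosphofructokinase transcripts in CM and 74.4% in TSF. Pklr, Hk3, Hkdc1, Gapdhs, Pgam2 and Ldhc had no UMI in any cancer cell. A count of 0 allows up to 10.3% of CM cells and 2.16% of TSF cells with a UMI (3 cells of the total), which says nothing of cells with transcripts that went undetected. Slc2a3, the second glucose transporter listed, was found in 0 CM cells and 2 TSF cells.

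Some of these genes have near-identical copies, among which reads can be split. Eno1b, a copy of Eno1, had 1.55 CP10k in CM and 2.14 CP10k in TSF, a log2 ratio of 0.30 close to that of Eno1. Eno1 made up 69.5% of enolase transcripts in CM and 71.4% in TSF when Eno1b was counted as a gene of its own. A second entry of Aldoa had UMIs in 1 CM cell and 2 TSF cells, and Aldoart1, Aldoart2 and Ldhal6b had none. Gapdh, Pgk1, Tpi1 and Ldha have processed pseudogenes, and their values are uncertain to that extent.

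Promoter sequences were set beside these values because the genes are known HIF1 targets. RefSeq windows of 250 bases upstream of each transcript start on GRCm38.p6 were matched for 10 of 10 members, 16 windows in all. They were searched on both strands for ACGTG, whose reverse complement reads CACGT, and for GCGTG, whose reverse complement reads CACGC, the core letters that HIF1 is known to bind. The palindrome CACGTG, an E-box that MYC also binds, contains ACGTG on both strands and so counts as 2 overlapping matches of it. ACGTG was found in windows of 6 of the 10 members, GCGTG in windows of 4 and either of them in windows of 8, the exceptions being Gpi1 and Tpi1. By window, 12 of the 16 held either, against 38.6% of all 32851 windows of the same length. ACGTG was in 7 of the 16 windows and 16.6% of all windows, and GCGTG in 6 of the 16 and 28.2% of all. A window that held both, as that of Slc2a1 did, was counted for each. Windows of 1 gene overlap where its starts are close, so windows are not independent. Genes with more windows have more chances of a match, and no share by gene was computed over all genes. The windows compared were not matched for their content of G and C. A match is a stretch of letters in the reference genome and not a bound site.

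The windows of 4 members are shown, Pgk1 with the largest log2 ratio, Ldha with the most matches, Hk2 with the lowest log2 ratio and Gpi1 with no match. Each runs 5′ to 3′ on the strand of its gene and ends at the base before the start, and capitals mark the ACGTG motif on either strand.
Pgk1, chrX:106186850-106187099, plus strand: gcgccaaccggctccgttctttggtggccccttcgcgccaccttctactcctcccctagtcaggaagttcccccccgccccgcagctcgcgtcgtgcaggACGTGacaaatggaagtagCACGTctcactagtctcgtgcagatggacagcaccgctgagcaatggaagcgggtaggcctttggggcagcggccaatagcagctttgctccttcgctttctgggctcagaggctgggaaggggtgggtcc
Ldha, chr7:46845554-46845803, plus strand: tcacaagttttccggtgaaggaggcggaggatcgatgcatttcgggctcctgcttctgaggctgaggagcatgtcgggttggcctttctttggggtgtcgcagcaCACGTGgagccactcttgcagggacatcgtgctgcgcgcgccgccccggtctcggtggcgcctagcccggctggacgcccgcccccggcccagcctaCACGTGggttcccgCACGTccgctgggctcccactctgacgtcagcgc
Hk2, chr6:82774455-82774704, minus strand: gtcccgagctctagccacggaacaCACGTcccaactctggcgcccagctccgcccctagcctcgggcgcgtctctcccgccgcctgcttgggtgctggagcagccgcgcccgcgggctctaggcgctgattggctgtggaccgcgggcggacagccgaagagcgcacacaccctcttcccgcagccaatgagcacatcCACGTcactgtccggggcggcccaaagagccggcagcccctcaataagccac
Gpi1, chr7:34230337-34230586, minus strand: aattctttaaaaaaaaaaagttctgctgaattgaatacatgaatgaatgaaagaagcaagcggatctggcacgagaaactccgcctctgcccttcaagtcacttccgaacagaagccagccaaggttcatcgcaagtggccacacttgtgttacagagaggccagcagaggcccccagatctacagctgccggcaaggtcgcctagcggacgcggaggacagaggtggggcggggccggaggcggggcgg
Pgk1, with 2 matches, was higher in TSF and Hk2, also with 2, was lower. Ldha has 5 matches in this window, of which 2 CACGTG account for 4, and Tpi1, which stood past 1.5-fold, has none. Whether these sites play a part in the levels was not tested, and sequence outside the windows was not searched. Only GCGTG was found in the windows of Gapdh and Eno1.

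Other genes of glucose metabolism were read in 7 lists, which cover the other steps and isozymes, regulators, handling of pyruvate and lactate, the pentose phosphate route, gluconeogenesis, glycogen, and the serine and glycerol branches, and hold 69 genes. Of these, 46 were among the genes compared, with 23 higher and 23 lower in TSF, a median log2 ratio of 0.00, 0 past 1.5-fold higher and 1 past 1.5-fold lower with 1 CP10k added to each level. Most of these genes have low levels, which the added 1 CP10k holds near 0, and on plain ratios 8 of the 46 (17.4%) were past 1.5 higher and 9 (19.6%) past 1.5 lower, against 16% and 29.8% of all genes compared. The 8 higher were Aldoc, Gys1, Ldhb, Pdk1, Pdk2, Pfkl, Pfkp and Pgm1. The 9 lower were Dlat, G6pdx, Gpd1l, Myc, Pdha1, Pdk3, Pdp1, Pfkfb4 and Rpe. Some of these ratios rest on few cells, with Pdk1 found in 1, Pdk2 in 2 and Gpd1l in 3 of the 29 CM cells. Among the 46, intervals of the share of cells lie apart only for Pdk1 and Pgm1, higher in TSF, and for G6pdx, lower in TSF. Their shares are given below for that reason, after the values were seen. Among the other steps and isozymes 9 of 11 were higher, with a median of 0.11 and a summed level of 11.7 CP10k in CM and 13.8 CP10k in TSF.

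**Figure D4:**
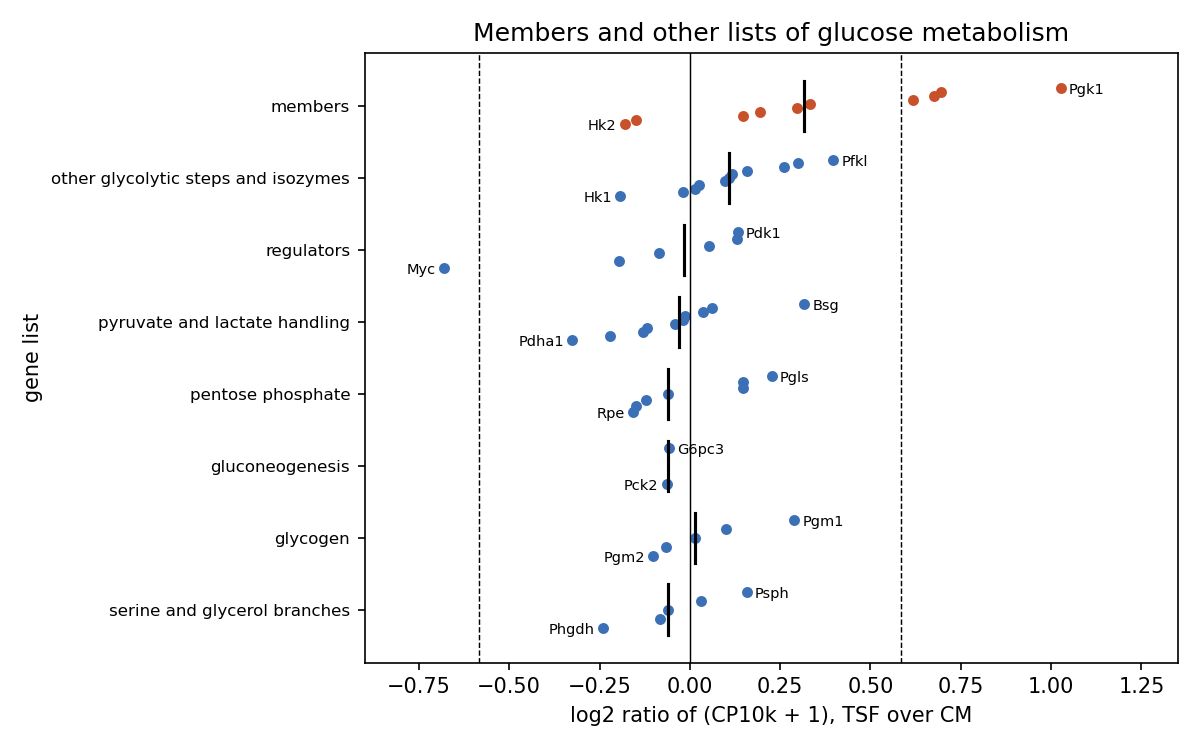
Log2 ratio of TSF over CM (after 1 CP10k was added to each level) of every gene compared in each list, 1 point per gene, with the list's median as a black bar. The 10 glycolysis genes have a median of 0.31 and the other 7 lists lie around 0, with Myc at -0.68 the furthest of their genes.

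Of 6 regulators compared, 3 were higher and 3 lower in TSF, with a median log2 ratio of -0.02. Hif1a, the oxygen-regulated subunit of HIF1, had 1.43 CP10k in CM and 1.66 CP10k in TSF, a log2 ratio of 0.13. RNA level is a poor reading of that subunit, whose amount is known to be set mainly by protein breakdown. Myc, a transcription factor of growth genes, had 2.47 CP10k in CM and 1.16 CP10k in TSF, a log2 ratio of -0.68 and the 1 gene of these lists past 1.5-fold lower. It was found in 25 of 29 CM cells and 105 of 139 TSF cells. Pdk1, a kinase that switches pyruvate dehydrogenase off and a HIF1 target, was found in 1 of 29 CM cells (3.45%, interval 0.0873 to 17.8) and 37 of 139 TSF cells (26.6%, interval 19.5 to 34.8). These intervals lie apart with the higher share in TSF, as for 1.14% of the genes compared. The mean level of Pdk1 was only 0.0351 CP10k in CM and 0.134 CP10k in TSF, while Pdk3 of the same family had 0.337 CP10k in CM and 0.167 CP10k in TSF.

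Of the genes that act on pyruvate and lactate 3 of 10 were higher in TSF, against 40.3% of all genes compared, and their median log2 ratio of -0.03 was that of all genes. Pdha1, the catalytic subunit of pyruvate dehydrogenase, had 0.857 CP10k in CM and 0.483 CP10k in TSF, a log2 ratio of -0.32. Dlat, another subunit of that complex, had 0.609 CP10k in CM and 0.380 CP10k in TSF, a log2 ratio of -0.22. The other subunits listed differed less, with log2 ratios of -0.04 for Pdhb, 0.06 for Dld and 0.04 for Pdhx. Among lactate exporters, Slc16a1 had 0.568 CP10k in CM and 0.547 CP10k in TSF, and Slc16a3 was found in 0 CM cells and 9 TSF cells. Bsg, the chaperone of both exporters, had 6.58 CP10k in CM and 8.45 CP10k in TSF, a log2 ratio of 0.32.

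Branches that leave the pathway showed no common direction. In the pentose phosphate list 3 of 7 genes were higher in TSF and the median was -0.06. G6pdx, its entry enzyme, was found in 19 of 29 CM cells (65.5%, interval 45.7 to 82.1) and 49 of 139 TSF cells (35.3%, interval 27.3 to 43.8), with the intervals apart and the lower share in TSF, as for 1.51% of the genes compared. Its level was 0.353 CP10k in CM and 0.220 CP10k in TSF, whereas Tkt, of the non-oxidative arm, had 2.24 CP10k in CM and 2.58 CP10k in TSF. Pgm1, which links glycogen to glucose 6-phosphate, was found in 12 of 29 CM cells (41.4%, interval 23.5 to 61.1) and 97 of 139 TSF cells (69.8%, interval 61.4 to 77.3). Its intervals also lie apart, with the higher share in TSF, as for 1.14% of the genes compared. Like Pdk1 and G6pdx, Pgm1 was picked from the listed genes because its intervals lie apart. Phgdh, which diverts 3-phosphoglycerate to serine, had 1.58 CP10k in CM and 1.18 CP10k in TSF, a log2 ratio of -0.24.

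Published gene sets for glycolysis were then read without the members. In the KEGG set of glycolysis and gluconeogenesis, 34 genes were compared and 21 were higher in TSF, but of the 25 that remain without the 9 members it holds 13 were higher, with a median log2 ratio of 0.01 and 0 past 1.5-fold. In the Reactome set 23 of the 48 genes that are not members were higher, with a median of -0.03. The Hallmark set, which holds many genes that are not enzymes of the pathway, had 80 of 148 higher apart from its 7 members, with a median of 0.02. In that set 5 of the 148 genes beyond the members were past 1.5-fold higher, Fam162a, Med24, Mif, Ndufv3 and Sdc1, and Sox9 was past 1.5-fold lower, all 6 named after their values were seen. Of all genes compared 0.755% were past it higher and 1.95% lower. Among genes at the level of Slc2a1 or above these shares were 4.06% and 9.74%. Fam162a had 1.69 CP10k in CM and 5.59 CP10k in TSF, and Mif, a secreted cytokine, had 11.8 CP10k in CM and 24.3 CP10k in TSF. Sets that contain the 10 genes are not independent of them.

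Other features of the libraries moved with these differences. Ribosomal protein genes took 18.6% of CP10k in CM and 23.9% in TSF, and the summed level of 7 immediate-early genes, which respond to handling among other stimuli, was 104 CP10k in CM and 37.6 CP10k in TSF. The authors' finer clusters were unequally filled, with 23 of 29 CM cancer cells (79.3%, interval 60.3 to 92.0) and 54 of 139 TSF cancer cells (38.8%, interval 30.7 to 47.5) in 1 of the 2 cancer cell clusters and the rest in the other.

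Markers of other lung cells were also read in both libraries. The 11 leukocyte markers summed to 0.00958 CP10k in CM, with 10 of 11 at 0, and to 1.17 CP10k in TSF, with Lyz2 and Nkg7 at 0 and S100a9 at 0.685 CP10k the largest. In TSF S100a9 was found in 4 of 139 cells and S100a8, at 0.300 CP10k, in 2. Endothelial markers summed to 0.059 CP10k in CM and 0.186 CP10k in TSF, fibroblast markers to 0.0907 and 0.613 CP10k, alveolar and club cell markers to 0.476 and 0.059 CP10k, and erythroid markers to 0.048 and 0 CP10k. The part of these markers, of Epcam and CD90.1, of cluster, of the share of shallow cells and of the immediate-early and ribosomal genes in the values of the 10 genes was not tested.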

How the data were processed

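Lungs were profiled with 5′ droplet libraries. The authors mapped reads with Cell Ranger to the mouse genome (mm10, GRCm38.p6), to which the sequence of CD90.1 was appended, removed ambient RNA from the counts by an adapted SoupX, imported them with Seurat 4.1.0, clustered the cells in Monocle3-alpha and named cancer cell clusters by CD90.1. The deposited cell table gives the UMI count of each cell and the percent of mitochondrial UMIs, and 2 libraries in it that are not among the samples described were not used. The deposited gene table gives mean CP10k and, as a number and as a percent, the cells with a UMI, for cancer cells of day 16. Its fold changes, p-values and q-values, and the authors' table of enrichment scores, were not used. Cells the authors called doublets are a class apart from the cancer cells, and no doublet caller was run here. For the cancer cells themselves the paper reports that removing doublets was not needed. Whether mixed droplets remain among them was not tested.

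Log2 ratios used a pseudocount of 1, and genes with a UMI in at least 10% of cells of either library were compared, 10201 of 23771. With 1 library per group no test was made. Shares were not thinned to equal depth, since values of single cells were not used. Scripts were tested on simulated data. Coordinates came from GENCODE on GRCm38 and promoter sequences from RefSeq on GRCm38.p6, which is the reference strain and not BALB/c. All 10 members were named, and other genes came from pathway lists. The members, lists and measures were chosen with earlier results of these data known. Alternatives were other pseudocounts, folds, filters and scalings. Computation used scipy 1.17.1, pandas 2.3.3 and numpy 2.4.6 in Python 3.11.15, with figures from matplotlib 3.10.9.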

Additional observations from a re-analysis of the deposited data

How the results depend on the processing

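The 10 log2 ratios kept their sign and their side of 1.5-fold in all 50 values from 5 alternatives, which were a pseudocount of 0.1 or 0, rescaling without ribosomal protein genes, rescaling also without mitochondrially encoded genes, and centring on the median gene. Under these the median over the members ran from 0.34 to 0.42 and the ratio of summed levels from 1.38 to 1.48. The median of all genes compared moved from -0.03 to -0.13 with a pseudocount of 0.1 and to -0.19 with 0. With 2-fold in place of 1.5-fold, 1 member (Pgk1) was past it, and with the smaller fold that was tried 5 were. The shares of genes past 1.5-fold were 4.06% higher and 9.74% lower among genes at the level of Slc2a1 or above, and 8.86% higher and 11.6% lower at 3 CP10k or above, both limits chosen after seeing the data. On plain ratios, also added after seeing the data, 16% of genes compared were past 1.5 higher and 29.8% lower, and 8 and 9 of the 46 genes compared in the other lists were, in place of 0 and 1. The cause is the added 1 CP10k, which holds low levels near 0. Mean level and share of cells gave opposite directions for Hk2 (log2 ratio -0.18, share higher by 17.5 percentage points), and the cause was not tested. The signs also differed for Gapdh (log2 ratio 0.30, share difference -0.719 points) and Pkm (log2 ratio 0.15, share difference -1.44 points). There the share was 100% in CM, against 99.3% in TSF for Gapdh and 98.6% in TSF for Pkm. A share of 100% in CM cannot be exceeded in TSF, so these differences show no conflict between level and share. The intervals of the shares overlap for Hk2, Gapdh and Pkm. No paired analysis was possible because each treatment had 1 library at day 16, and leaving out a library was not possible for the same reason. The 29 cells of the CM library limit its means, whose error is unknown.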
